A study of Mus musculus with 12 samples.

Results

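Transcripts of 9 genes that carry out or control the breakdown of stored fat (Pnpla2, Pnpla3, Lipe, Mgll, Abhd5, G0s2, Hilpda, Aqp7 and Ces1d) were followed in mouse white adipocytes by RNA sequencing. They were chosen for their function, with earlier results of these data known. They are the rows of the count table with these symbols and make up 9 of its 20295 genes. All 9 passed the filter on low counts that 13543 genes passed. The cells were mature epididymal white adipocytes (eWAs) of lean male C57/BL6J mice, freed with collagenase, floated away from the other cells and kept for 2 days in a hydrogel. The age of the mice and the number of mice behind a culture are not given in the sources used here. There were 4 groups with 3 libraries each. The first received DMSO alone (vehicle). The second was given isoproterenol, which activates β-adrenergic receptors, for 3 h (ISO), the third the lipase inhibitors (Lip) and the fourth the inhibitors and then isoproterenol for 3 h (Lip+ISO). The inhibitors act on the enzymes that Pnpla2 and Lipe encode and not on the genes. The study's methods describe CAY10499, which blocks the product of Lipe, as acting on monoacylglycerol lipase too, the product of Mgll. The sample titles name ISO, whereas one figure legend of the study names the lipolysis activator SR-3420 for these cells, and the titles were followed here.

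Lipolysis cuts the fatty acids off triacylglycerol one after another. Adipose triglyceride lipase (ATGL, gene Pnpla2) takes the first, hormone-sensitive lipase (HSL, gene Lipe) the next and monoacylglycerol lipase (gene Mgll) the last. ATGL needs the coactivator ABHD5, also called CGI-58, and is held back by the small proteins G0S2 and HILPDA. β-adrenergic receptors switch the route on through cAMP and protein kinase A (PKA), which acts on HSL and on the droplet coat that holds ABHD5. Aqp7 encodes a channel through which glycerol leaves the adipocyte, Ces1d a carboxylesterase with lipase activity, and Pnpla3 a relative of ATGL.

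Libraries held 22632220 to 43707557 counts, and a count of 0 would allow up to 0.0686 to 0.133 CPM (read counts scaled to library size) in a library, for counting error only. CPM values are scaled between libraries by the trimmed mean of M-values (TMM). No 2 libraries were identical. In a principal component analysis, Lip replicate 3 stood apart from the other libraries on the third component, which carried 7.39% of the variance, so the tested comparisons that include the Lip group are also given without it. All 12 adipocyte markers were detected in every library, and their summed level was 39670 to 51235 CPM in vehicle, 33491 to 45043 in ISO, 35455 to 43372 in Lip and 29240 to 46838 in Lip+ISO. Lists of markers of other cell types had far lower sums. The 10 fibroblast markers summed to 505 to 879 CPM in vehicle, 1005 to 1329 in ISO, 650 to 720 in Lip and 620 to 844 in Lip+ISO. The 10 macrophage markers summed to 53.3 to 67.5, 101 to 151, 56.5 to 61.9 and 65.6 to 113 CPM, and the 10 endothelial markers to 133 to 252, 302 to 545, 67.4 to 218 and 102 to 299 CPM, in the same order. The B cell marker Ms4a1 was at 0 in 6 libraries. In bulk RNA, fewer cells of a type and less RNA per cell cannot be told apart.

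To ask how the lipolytic genes respond to a β-adrenergic agonist, ISO was compared with vehicle. Hilpda rose 11.2-fold, G0s2 fell to 0.295 of its vehicle level and Abhd5 rose 1.25-fold. The transcripts of the 2 inhibitors of ATGL thus moved in opposite directions, while the lipases themselves did not pass the test. Of the 9 genes, 2 were called higher and 1 lower at an adjusted p at or under 0.05 (edgeR quasi-likelihood test, Benjamini-Hochberg adjustment over all tested genes), beside 26.2% of all tested genes called in either direction, 12.3% higher and 13.9% lower. With a size of at least 1 on the log2 scale required too, Hilpda and G0s2 were called, beside 7.48% of all tested genes. The 3 libraries of each group did not overlap for 3 of the 9 genes, beside 43.3% of all tested genes. The median log2 fold change of the 9 was -0.18, against 0.0018 over all tested genes. Libraries of these 2 groups with the same replicate number deviated together (correlations of 0.139 to 0.331 between deviations from the group means). The titles do not say what a number marks. The blocked fit, which takes the numbers as pairs, is given where it changed a call. It called 5 of the 9, beside 38.5% of all tested genes.

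Among the regulators of ATGL, Hilpda had 21.9, 22.0 and 28.6 CPM in the vehicle libraries (replicates 1 to 3) and 312, 242 and 259.9 in ISO. Every ISO library was thus far above every vehicle library. This was a log2 fold change of 3.49 ± 0.18 (SE, n = 3 per group, edgeR adjusted p = 7.79e-08), the largest change among the 9 genes. The other inhibitor, G0s2, had 509, 476 and 403 CPM in vehicle and 106, 167 and 136 in ISO. Again the groups were clearly apart, with all ISO libraries low, and the fold change was -1.76 ± 0.36 on the log2 scale (edgeR adjusted p = 0.00354). Abhd5, the coactivator, had 290.0, 268 and 266 CPM in vehicle and 359, 328 and 343 in ISO, so that the groups did not overlap although the difference was small. Abhd5 thus changed by 0.32 ± 0.10 on the log2 scale (edgeR adjusted p = 0.0338). That call was lost when any one of the 6 vehicle and ISO libraries or Lip replicate 2 was left out, and in 10 of 15 fits that left out libraries, with log2 fold changes of 0.29 to 0.36 and adjusted p up to 0.188. Without the filter on low counts its edgeR adjusted p was 0.0527.

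**Figure D1:**
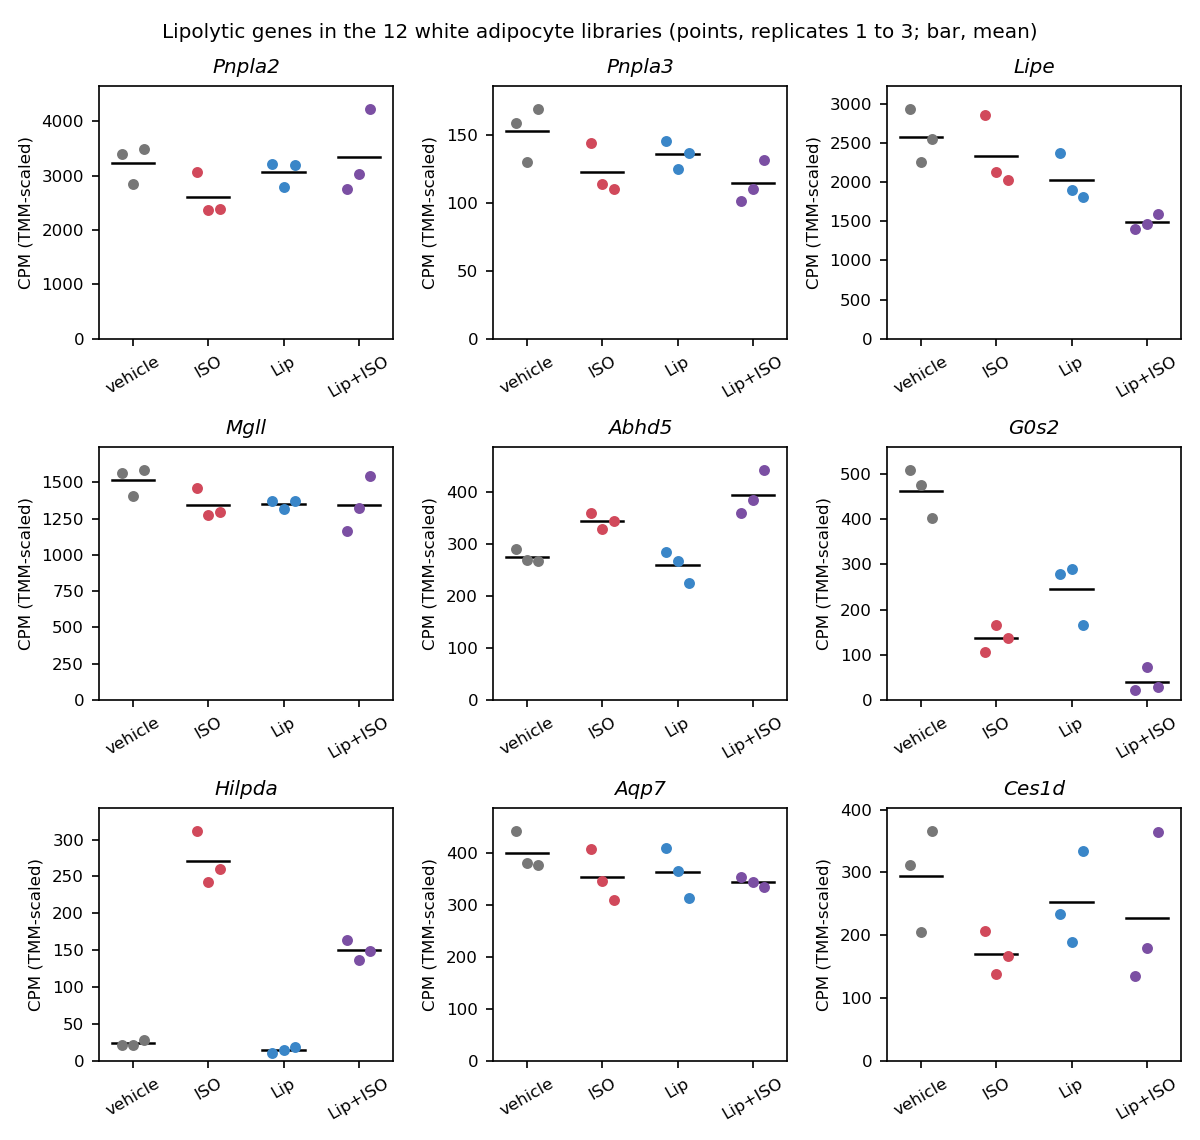
CPM (read counts scaled to library size and by TMM, y axis from 0) of the 9 lipolytic genes in each of the 12 libraries, with 1 panel per gene, 1 column per group, replicates 1 to 3 from left to right and the group mean as a bar. Hilpda is high in both groups with isoproterenol, G0s2 is low in both and lowest in Lip+ISO, and Lipe is lowest in Lip+ISO, whereas the groups overlap for Mgll in ISO and vehicle.

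The lipases were abundant and moved little. Pnpla2 had 3391, 2843 and 3482 CPM in vehicle and 3073, 2377 and 2395 in ISO, with overlapping groups. They differed by -0.31 ± 0.16 on the log2 scale (edgeR adjusted p = 0.170), with a 95% confidence interval from -0.65 to 0.04. Lipe had 2933, 2251 and 2549.9 CPM in vehicle and 2858, 2133 and 2022 in ISO, and again the ranges overlapped. Here the log2 fold change was -0.14 ± 0.15 (edgeR adjusted p = 0.512), with an interval from -0.46 to 0.18. Mgll, whose product takes the last fatty acid, had 1403 to 1586 CPM in vehicle and 1278 to 1458 in ISO, a log2 fold change of -0.18 ± 0.11 (edgeR adjusted p = 0.237).

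Pnpla3 had 159, 129.9 and 169 CPM in vehicle and 144, 114 and 110.1 in ISO. Only the first ISO library lay above the lowest vehicle library. The log2 fold change of -0.32 ± 0.13 did not pass the test (edgeR adjusted p = 0.0945) and did in the blocked fit, where it was -0.31 (adjusted p = 0.0462). It also passed without vehicle replicate 2, without ISO replicate 1 and with library totals as the only scaling (-0.36, edgeR adjusted p = 0.0228). Ces1d had 311, 205 and 366 CPM in vehicle and 206, 139 and 167 in ISO, where the lowest vehicle library and the highest ISO library almost coincided. Its log2 fold change was -0.79 ± 0.33 (edgeR adjusted p = 0.0986) and -0.74 in the blocked fit (adjusted p = 0.0214). It also passed without Lip+ISO replicate 3, which shares the fit, and in a fit to these 2 groups alone (-0.78, edgeR adjusted p = 0.0197). Ces1d has close paralogs (the Ces1 genes), between which the counting could split reads, so its level is uncertain. Aqp7, the glycerol channel, had 376 to 441 CPM in vehicle and 308 to 407 in ISO, a log2 fold change of -0.17 ± 0.12 (edgeR adjusted p = 0.296).

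Markers of some other cell types moved with this comparison. Higher in ISO were 5 of 10 macrophage markers, 5 of 10 fibroblast markers, 1 of 10 endothelial markers, 1 of 8 mesothelial markers and 1 of 2 tested lymphocyte markers. Of all tested genes, 12.3% were higher. The blocked fit called 7, 9, 9, 2 and 1 of these markers higher, beside 38.5% of all tested genes called in either direction. Of the 12 adipocyte markers, 3 were lower (Lep, Pparg and Cebpa), beside 13.9% of all tested genes. Of the 4 tested hepatocyte markers, which summed to 11.6 to 27.4 CPM in vehicle and ISO, the median log2 fold change was 0.23. The part of these cell types in the changes of Hilpda, G0s2 and Abhd5 was not tested.

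To ask whether the response to isoproterenol was the same with the lipases blocked, Lip+ISO was compared with Lip. Hilpda and Abhd5 rose and G0s2 fell here too, and Lipe also fell. Thus 2 of the 9 genes were called higher and 2 lower, beside 27.3% of all tested genes called in either direction (11.5% higher, 15.8% lower). With a log2 fold change of at least 1 required as well, Hilpda and G0s2 were called, beside 7.35% of all tested genes. The groups did not overlap for 4 of the 9, beside 39.1% of all tested genes. Hilpda had 10.9, 14.4 and 18.4 CPM in Lip and 164, 136 and 149 in Lip+ISO, so that all libraries with isoproterenol were high. They differed by 3.36 ± 0.18 on the log2 scale (edgeR adjusted p = 4.14e-08). G0s2 had 278, 290.2 and 166 CPM in Lip and 21.6, 71.9 and 28.2 in Lip+ISO, where replicate 2 was the highest of the 3 low libraries. For G0s2 this was a log2 fold change of -2.59 ± 0.38 (edgeR adjusted p = 2.06e-04). Abhd5 had 284, 266 and 224 CPM in Lip and 358, 383 and 441 in Lip+ISO, with no overlap. Its log2 fold change was 0.61 ± 0.10 (edgeR adjusted p = 5.96e-04) and kept its call in all 15 fits that left out libraries.

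Lipe had 2373, 1903 and 1812 CPM in Lip and 1407, 1471 and 1598 in Lip+ISO, and every library with both treatments was below every library with the inhibitors alone. The log2 fold change of -0.44 ± 0.15 just passed the test (edgeR adjusted p = 0.0416). It no longer did when vehicle replicate 3, Lip replicate 1, Lip replicate 2 or any one Lip+ISO library was left out, or a replicate number was left out of every group, with log2 fold changes of -0.57 to -0.26 and adjusted p up to 0.205 over the 15 fits. With size factors in place of TMM, it was -0.41 (edgeR adjusted p = 0.0587). The remaining 5 genes did not pass the test, with log2 fold changes of 0.12 for Pnpla2, -0.25 for Pnpla3, -0.01 for Mgll, -0.08 for Aqp7 and -0.16 for Ces1d. With library totals as the only scaling, which moved the median of all tested genes to -0.12, Pnpla3 was called lower (-0.36, edgeR adjusted p = 0.0192). Without Lip replicate 3, the same 4 calls were made, with log2 fold changes of 3.56 for Hilpda, -2.81 for G0s2, 0.52 for Abhd5 and -0.52 for Lipe. Of the markers of other cell types, 2 of 10 macrophage, 1 of 10 endothelial and 1 of 8 mesothelial markers were higher, beside 11.5% of all tested genes. The adipocyte markers Lep and Cebpa were lower, beside 15.8% of all tested genes. The blocked fit, in which 35.6% of all tested genes were called, put 3 macrophage, 7 endothelial, 1 fibroblast and 1 mesothelial marker higher. Their part in the changes of Hilpda, G0s2, Abhd5 and Lipe was not tested.

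The difference between the 2 responses to isoproterenol, with the inhibitors minus without, was tested as an interaction. None of the 9 genes passed the edgeR test, none had an unadjusted p under 0.05 (13.8% of all tested genes did) and DESeq2 called none, beside 1.62% of all tested genes called by edgeR (0.901% higher, 0.724% lower, and 0.746% with a size of at least 1). For Hilpda the interaction was -0.13 (95% confidence interval -0.65 to 0.38, edgeR adjusted p = 0.860), so a difference of over 0.65 log2 units lay outside the interval. For G0s2 it was -0.83 (interval -1.92 to 0.26, edgeR adjusted p = 0.516), an interval that included 0 and reached down to a difference of -1.92. Without Lip+ISO replicate 2, the library with the highest G0s2 level of its group, it was -1.52 (edgeR adjusted p = 0.0427). For Lipe, called in Lip+ISO against Lip and not in ISO against vehicle, it was -0.30 (interval -0.76 to 0.15, edgeR adjusted p = 0.584). The interactions of Pnpla2, Abhd5 and Ces1d were 0.43, 0.29 and 0.63, all with intervals that included 0. Without Lip replicate 3, again none of the 9 passed the edgeR test, and the interaction was -1.04 for G0s2, 0.47 for Pnpla2, 0.20 for Abhd5 and, with its sign changed, 0.08 for Hilpda.

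**Figure D2:**
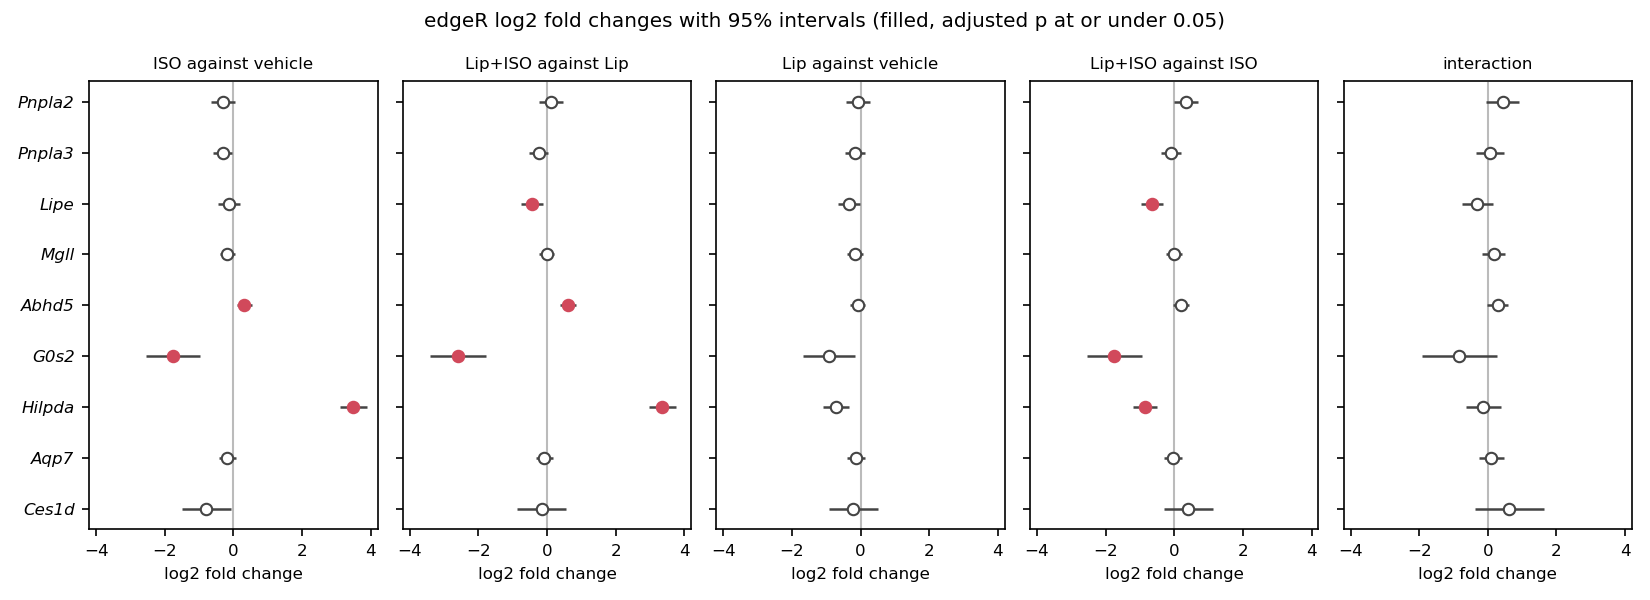
Log2 fold changes (x axis) with 95% confidence intervals of the 9 lipolytic genes in 4 comparisons and the interaction, from the edgeR fit to all 12 libraries, with filled points at an adjusted p at or under 0.05. Hilpda, G0s2 and Abhd5 are filled in both comparisons with isoproterenol against its control, and Lipe also in Lip+ISO against Lip. Lipe, G0s2 and Hilpda are filled in Lip+ISO against ISO, and no point is filled in Lip against vehicle or the interaction.

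Whether the lipase inhibitors alone changed the lipolytic genes was asked in the comparison of Lip with vehicle. None of the 9 genes passed the edgeR test, beside 0.0517% of all tested genes (0.00738% higher and 0.0443% lower, and 0.0222% with a log2 fold change of at least 1). Unadjusted p was under 0.05 for 3 of them, beside 582 of all tested genes (4.3%), and DESeq2 called 1, Hilpda, beside 57 in the whole table. All 3 Lip libraries of Hilpda, at 10.9, 14.4 and 18.4 CPM, were below the lowest vehicle library, at 21.9. The log2 fold change was -0.72 ± 0.17 (edgeR adjusted p = 0.353) and -0.73 in DESeq2 (adjusted p = 0.0202). G0s2 had 166 to 290.2 CPM in Lip against 403 to 509 in vehicle, also without overlap, a log2 fold change of -0.92 ± 0.35 (edgeR adjusted p = 0.913). The groups did not overlap for 3 of the 9 genes, the third being Mgll, beside 10.4% of all tested genes. Lipe had a log2 fold change of -0.35 ± 0.15, and the other genes lay between -0.22 and -0.08. Without Lip replicate 3, the library with the lowest G0s2 and the highest Hilpda level of the Lip group, no gene passed either, and the log2 fold changes were -0.71 for G0s2, -0.94 for Hilpda and -0.28 for Lipe.

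The effect of the inhibitors in stimulated cells was read from Lip+ISO against ISO. G0s2, Hilpda and Lipe were lower with the inhibitors and no gene was called higher, so that 3 of the 9 genes were called, beside 8.94% of all tested genes (4.36% higher, 4.59% lower). With a log2 fold change of at least 1 required, G0s2 alone was called, beside 1.99% of all tested genes. The groups did not overlap for 3 of the 9, beside 25.4% of all tested genes. G0s2 went from 106, 167 and 136 CPM in ISO to 21.6, 71.9 and 28.2 in Lip+ISO. Its log2 fold change was -1.75 ± 0.37 (edgeR adjusted p = 0.0102), with -2.45 to -1.45 over the 15 fits that left out libraries. The call was lost without Lip+ISO replicate 3 and without replicate 1 or replicate 3 of every group (adjusted p up to 0.137). Hilpda went from 312, 242 and 259.9 CPM to 164, 136 and 149, between the vehicle and the ISO libraries. Its log2 fold change was -0.86 ± 0.16 (edgeR adjusted p = 0.00575), and the call was lost without replicate 2 of every group (adjusted p = 0.0910).

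Lipe went from 2858, 2133 and 2022 CPM in ISO to 1407, 1471 and 1598 in Lip+ISO, so the gene of a lipase that is a target of the inhibitors was lowest where both agents were present. Lipe was thus 1.57-fold lower, a log2 fold change of -0.65 ± 0.15 (edgeR adjusted p = 0.0165). Leaving out ISO replicate 1, Lip+ISO replicate 2, or replicate 2 or 3 of every group ended the call (log2 fold changes of -0.79 to -0.43 over the 15 fits, adjusted p up to 0.125). Pnpla2, the gene of another targeted lipase, had 3073, 2377 and 2395 CPM in ISO and 2753, 3031 and 4226 in Lip+ISO, where replicate 3 was high and the groups overlapped. Its log2 fold change was 0.35 ± 0.16 (edgeR adjusted p = 0.201) and 0.09 to 0.61 over those fits. Abhd5 had a log2 fold change of 0.20 ± 0.10 (edgeR adjusted p = 0.263), with an interval from -0.02 to 0.42. Mgll, Aqp7, Pnpla3 and Ces1d lay at 0.00, -0.04, -0.10 and 0.41. The fibroblast markers moved with this comparison, with 4 of 10 lower, and 1 of 10 endothelial markers was lower, beside 4.59% of all tested genes. The median log2 fold change of the endothelial markers was -0.79. Of the adipocyte markers, Pparg was higher and Cebpa lower. The blocked fit, in which 19.2% of all tested genes were called, put 7 fibroblast, 8 endothelial, 1 macrophage and 1 mesothelial marker lower, although replicate numbers were not taken as pairs here. Their part in the changes of G0s2, Hilpda and Lipe was not tested.

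To compare levels between genes, CPM were divided by the counted length of each gene. In vehicle, Pnpla2 (1229 ± 131 CPM per kilobase, SD, n = 3) and Lipe (1069 ± 142) stood highest and overlapped, followed by G0s2 (549 ± 64.4) and Mgll (413 ± 27.3). Then came Aqp7 (158) and Ces1d (149.7), which overlapped, Abhd5 (87.3), and at the bottom Pnpla3 (32.8) and Hilpda (26.3), which overlapped too. In ISO, Hilpda had moved up to the fourth place at 295 ± 39.1 CPM per kilobase, below Mgll (366) and above G0s2 (162), and the ranges of G0s2 and Aqp7 (140.0) overlapped. Pnpla2 (992) and Lipe (969) still overlapped in ISO. In Lip they did not, at 1163 and 841. In Lip+ISO the gap was widest, at 1266 ± 297 against 619 ± 40.4 CPM per kilobase, and G0s2 was at 48.1 ± 32.4, a range that overlapped those of Ces1d (115) and Pnpla3 (24.6). Hilpda stood at 163 in Lip+ISO and at 15.8 in Lip, the lowest place of that group. Differences within a replicate group were largest for G0s2 and Ces1d in Lip+ISO, with coefficients of variation of 67.4% and 53.5%.

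**Figure D3:**
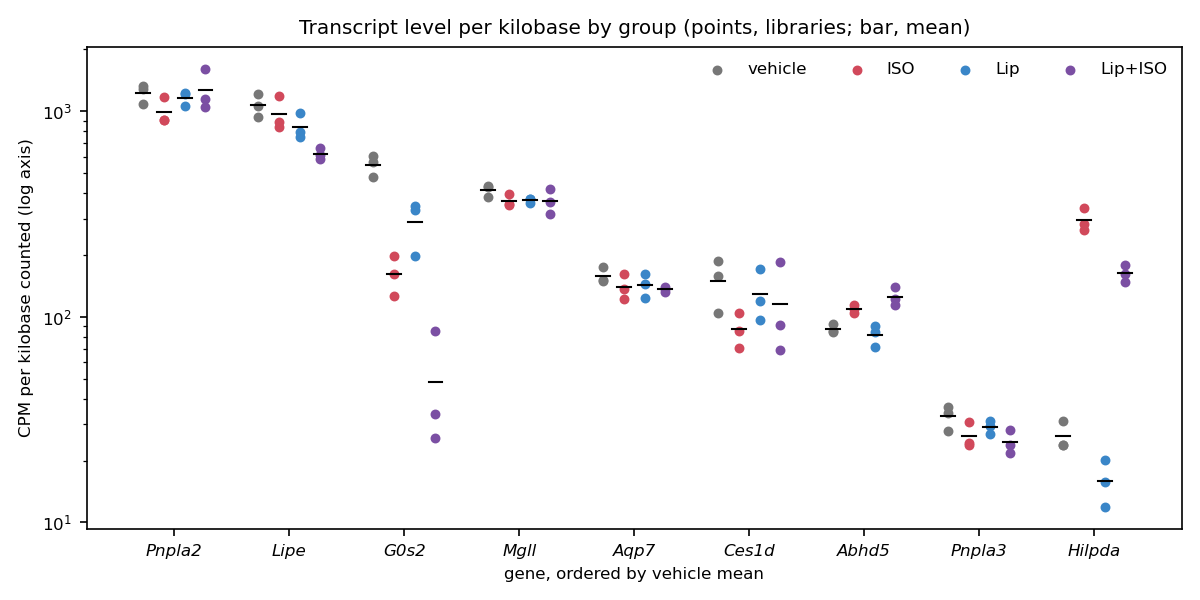
CPM per kilobase of counted length (log axis) of the 9 genes, ordered by their vehicle mean, with 1 point per library and the group mean as a bar, in the order vehicle, ISO, Lip and Lip+ISO within each gene. Pnpla2 and Lipe overlap in vehicle and ISO and separate in Lip+ISO (1266 and 619), while Hilpda spans 15.8 to 295 and G0s2 48.1 to 549 between group means.

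Ratios to Pnpla2 within a library do not depend on how libraries were scaled. They were compared as log2 ratios of counts per kilobase with an exact permutation test, two-sided, in which 3 against 3 libraries cannot go below p = 0.1. In vehicle there was 1 G0s2 count per kilobase for 2.27 of Pnpla2 (arithmetic mean over libraries), in ISO 1 for 6.48 and in Lip+ISO 1 for 34.1. The log2 ratio of G0s2 to Pnpla2 was -1.16 ± 0.27 (SD, n = 3) in vehicle, -2.63 ± 0.53 in ISO and -4.90 ± 1.00 in Lip+ISO. Neighbouring groups in this order did not overlap, and each difference had the smallest p possible (exact p = 0.1). The log2 ratio of Abhd5 to Pnpla2 rose by 0.64 from vehicle to ISO without overlap (exact p = 0.1). This took in a shift of Pnpla2 as well as one of Abhd5. In the edgeR fit, Abhd5 changed by 0.32 there and Pnpla2, which was not called, by -0.31. Between Lip+ISO and ISO the log2 ratio of Abhd5 to Pnpla2 differed by -0.14 (exact p = 0.4). The ratio of Lipe to Pnpla2 was close to 1 in ISO (log2 ratio -0.04 ± 0.07). In Lip+ISO it was 0.501 (log2 ratio -1.01 ± 0.23), a log2 difference of -0.97 (exact p = 0.1). In the edgeR fit, Lipe changed by -0.65 between these groups and Pnpla2, which was not called, by 0.35. Between ISO and vehicle the log2 ratio of Lipe to Pnpla2 differed by 0.16 (exact p = 0.2). The same shifts of Pnpla2 enter the ratios of G0s2 and Hilpda. For Hilpda the log2 ratio was higher by 3.80 in ISO than in vehicle and differed by -1.19 between Lip+ISO and ISO (exact p = 0.1 for both).

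**Figure D4:**
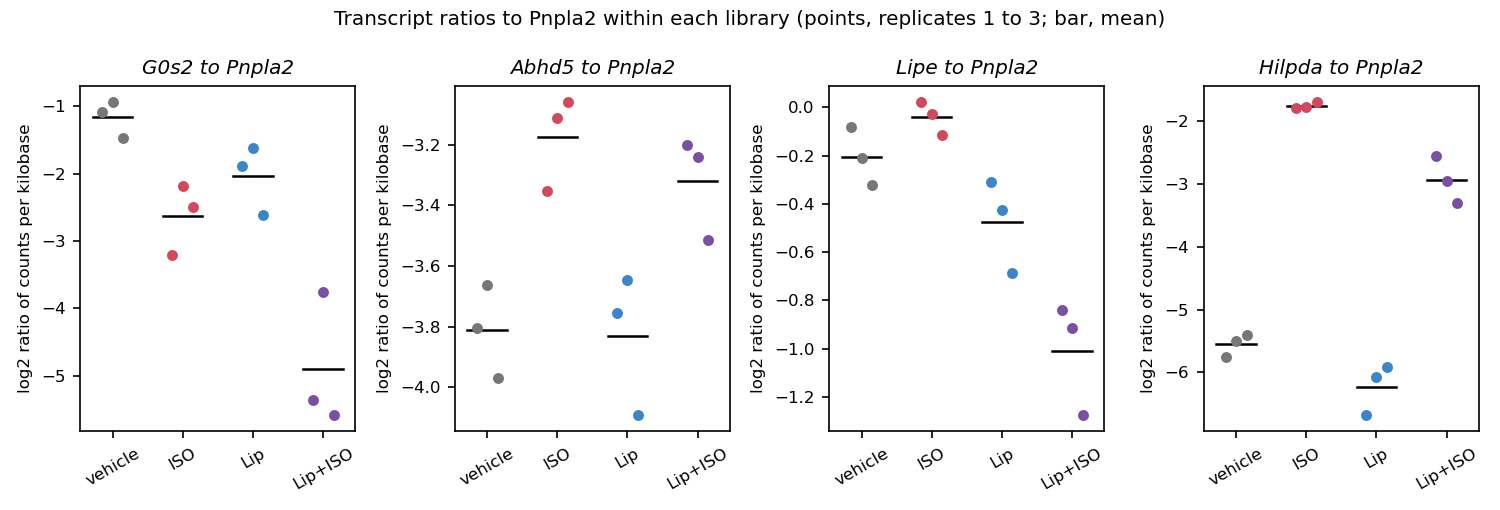
Log2 ratio of counts per kilobase to those of Pnpla2 (y axis, own range in each panel) for G0s2, Abhd5, Lipe and Hilpda in each library, with replicates 1 to 3 from left to right in each group and the mean as a bar. The G0s2 ratio is lowest in Lip+ISO (mean -4.90), the Lipe ratio falls below those of all other groups there (mean -1.01), and the Hilpda ratio is high in both groups with isoproterenol.

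The 250 bases before the annotated start of each gene were read from the mm9 genome, on the strand of the gene. For Hilpda, no start under that name was found in the GENCODE annotation of this build, so its start was not checked. The starts of the other members lay within 27 bases of one. The promoters of the 4 genes called in any comparison are printed because these transcripts moved, and that of Pnpla3 because it alone held a full cAMP response element. Capitals mark the match named after the sequences.
Hilpda (chr6:29222238-29222487, plus strand): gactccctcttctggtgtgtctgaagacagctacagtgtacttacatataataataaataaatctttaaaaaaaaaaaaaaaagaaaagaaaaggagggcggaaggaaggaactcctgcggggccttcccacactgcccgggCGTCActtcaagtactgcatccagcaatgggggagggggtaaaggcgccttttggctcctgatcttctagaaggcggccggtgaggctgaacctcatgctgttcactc
G0s2 (chr1:195099383-195099632, minus strand): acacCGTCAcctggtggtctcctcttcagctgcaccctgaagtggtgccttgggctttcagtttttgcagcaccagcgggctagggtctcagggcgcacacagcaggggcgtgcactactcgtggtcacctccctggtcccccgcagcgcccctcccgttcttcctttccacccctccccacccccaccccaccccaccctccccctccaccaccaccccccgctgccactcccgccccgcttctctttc
Abhd5 (chr9:122260484-122260733, plus strand): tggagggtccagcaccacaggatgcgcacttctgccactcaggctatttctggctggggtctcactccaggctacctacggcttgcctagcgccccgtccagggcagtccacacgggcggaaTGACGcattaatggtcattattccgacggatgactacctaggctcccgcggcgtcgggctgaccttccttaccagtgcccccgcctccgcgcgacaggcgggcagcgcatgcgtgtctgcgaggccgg
Lipe (chr7:26181007-26181256, minus strand): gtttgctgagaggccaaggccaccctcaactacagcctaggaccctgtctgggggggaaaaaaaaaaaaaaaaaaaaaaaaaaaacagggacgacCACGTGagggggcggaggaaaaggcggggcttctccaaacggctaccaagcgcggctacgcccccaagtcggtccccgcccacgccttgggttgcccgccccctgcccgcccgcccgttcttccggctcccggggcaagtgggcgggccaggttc
Pnpla3 (chr15:83997996-83998245, plus strand): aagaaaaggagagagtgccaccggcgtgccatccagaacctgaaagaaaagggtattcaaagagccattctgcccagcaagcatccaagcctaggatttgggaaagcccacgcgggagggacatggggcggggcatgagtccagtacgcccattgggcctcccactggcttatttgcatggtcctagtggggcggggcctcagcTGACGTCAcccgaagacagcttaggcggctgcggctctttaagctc
The full cAMP response element (TGACGTCA, read on both strands) was found in 1 of the 9 promoters, that of Pnpla3, 46 to 39 bases before the start, and in 2.14% of 20295 promoters of the same length. Its half-site (TGACG, which the full element contains) was found in 4 of 9, beside 21.2% of all promoters. In Abhd5 it lay 128 to 124 bases before the start. In Hilpda, at 108 to 104, and in G0s2, at 246 to 242, it was read on the opposite strand (CGTCA). The E-box CACGTG, which contains the hypoxia response core ACGTG, was found in Lipe, 155 to 150 bases before the start, and in Mgll, and in 6.92% of all promoters. The core itself was found in the same 2 of the 9 and in 18.2% of all promoters. The PPAR element of the DR1 type and the TATA motif (TATAAA) were found in none of the 9, beside 0.0542% and 11.8% of all promoters. A match of these letters is a description of the window and not a site in use.

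The genes themselves lie apart from any other gene of the table, on 7 chromosomes. In mm9, Pnpla2 (NM_001163689) spans chromosome 7, 148641087 to 148646642, plus strand, and Lipe (NM_010719) chromosome 7, 26164546 to 26181006, minus strand. G0s2 (NM_008059) spans chromosome 1, 195098354 to 195099382, minus strand, and is the shortest, with 843 bases counted. Hilpda (NM_001190461) spans chromosome 6, 29222488 to 29225449, plus strand, and Abhd5 (NM_026179) chromosome 9, 122260734 to 122290641, plus strand. Pnpla3 is on chromosome 15, Mgll on 6, Aqp7 on 4 and Ces1d on 8.

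Other genes of the pathway were taken from 4 lists, described here by counts and medians. Beside these counts, 26.2% of all tested genes were called in ISO against vehicle (12.3% higher, 13.9% lower) and 38.5% in its blocked fit. In Lip+ISO against ISO the share was 8.94% (4.36% higher, 4.59% lower). Of the 25 tested genes of the adrenergic and PKA route, 6 were higher and 6 lower in ISO than in vehicle (8 and 9 in the blocked fit), with a median log2 fold change of -0.01. Pde4d, a phosphodiesterase that breaks down cAMP, rose from 22.4 ± 1.90 to 153 ± 34.6 CPM (log2 fold change 2.77 ± 0.15, edgeR adjusted p = 1.02e-07). Adrb3, the main β-adrenergic receptor of mouse adipocytes, fell from 183 ± 46.1 to 28.8 ± 7.27 CPM (log2 fold change -2.67 ± 0.23, edgeR adjusted p = 3.87e-06). The other members called higher were Adcy3, Adcy7, Prkar1a, Pde4b and Hcar2, and those lower were Adrb1, Adcy6, Adora1, Hcar1 and Insr, so adenylate cyclases, which make cAMP, stood on both sides, while the called phosphodiesterases (Pde4d and Pde4b) were both higher. In Lip+ISO against ISO, 1 was higher and 3 lower. Pde4d rose further, to 374 ± 37.5 CPM (log2 fold change 1.29, edgeR adjusted p = 9.72e-05), and Hcar2, a receptor that lowers cAMP, fell from 46.9 ± 7.53 to 19.7 ± 3.37 CPM (-1.25, edgeR adjusted p = 4.08e-04).

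Of the 17 genes of glycerol export and re-esterification, 5 were higher and 2 lower in ISO (7 and 2 in the blocked fit), with a median of 0.28. Of all tested genes, 12.3% were higher and 13.9% lower, and the blocked fit called 38.5% in either direction. Dgat1, which adds the last fatty acid to a triacylglycerol, rose from 244 ± 23.7 to 887 ± 83.0 CPM (log2 fold change 1.86 ± 0.14, edgeR adjusted p = 1.40e-06). Gpam, which starts glycerolipid synthesis, fell from 599 ± 59.1 to 399.6 ± 65.9 CPM (-0.58, edgeR adjusted p = 0.00429). In Lip+ISO against ISO, 2 of the 17 were higher and 3 lower, beside 4.36% and 4.59% of all tested genes. Dgat1 rose again, to 1396 ± 295 CPM (0.65, edgeR adjusted p = 0.00923), and Pck1, an enzyme of glyceroneogenesis, fell from 1220 ± 491 to 563 ± 65.5 CPM (-1.11, edgeR adjusted p = 0.0174).

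The droplet list held 16 tested genes of lipid droplet proteins and of other proteins linked to the lipases. In ISO, 3 were higher (Plin2, Cidea and Serpinf1) and 1 lower (3 and 3 in the blocked fit), with a median of -0.13. Of all tested genes, 26.2% were called in ISO, 38.5% in its blocked fit and 8.94% in Lip+ISO against ISO. Plin2, which coats droplets, rose from 1635 ± 162 to 2497 ± 224 CPM (0.61, edgeR adjusted p = 0.00881) and was 1298 ± 315 CPM in Lip+ISO (-0.94 against ISO, edgeR adjusted p = 0.00162), the only gene of this list called there. Faf2 fell from 104 ± 4.50 to 86.3 ± 2.23 CPM in ISO (-0.26, edgeR adjusted p = 0.0109). Of the 20 tested genes of other lipid and ester hydrolases, 2 were higher and 1 lower in ISO (4 and 2 in the blocked fit), with a median of 0.13. The same shares of all tested genes stand beside these counts. Dagla, which releases a fatty acid from diacylglycerol, rose from 9.37 ± 1.08 to 30.7 ± 6.35 CPM (1.71, edgeR adjusted p = 5.84e-06), and Ddhd1, a phospholipase, fell from 35.1 ± 1.72 to 26.8 ± 2.95 CPM (-0.39, edgeR adjusted p = 0.0129). In Lip+ISO against ISO none of these 20 passed the edgeR test, 4 had an unadjusted p under 0.05 (23.8% of all tested genes did) and DESeq2 called 1.

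**Figure D5:**
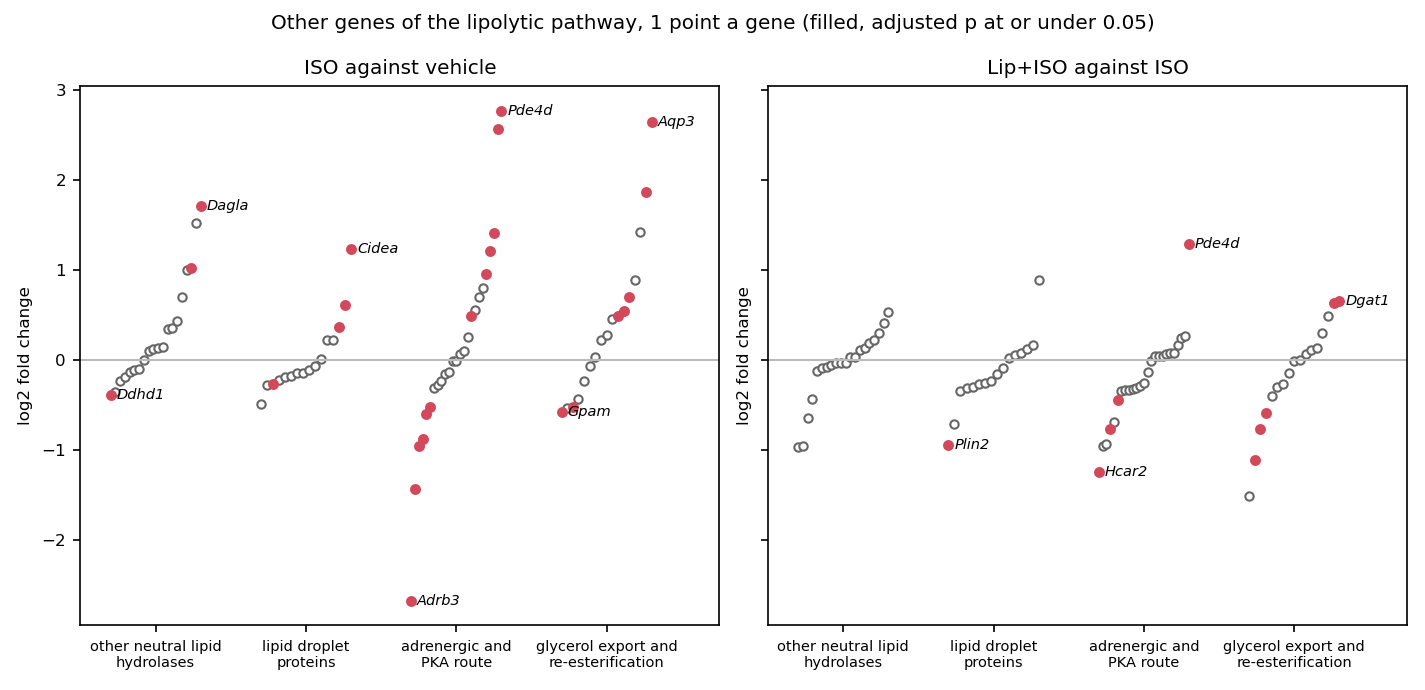
Log2 fold changes (y axis) of the tested genes in 4 lists of the lipolytic pathway, sorted within each list, for ISO against vehicle and for Lip+ISO against ISO, with filled points at an edgeR adjusted p at or under 0.05 and the outermost filled genes named at any expression level. The adrenergic list spreads furthest in ISO, from Adrb3 (-2.67) to Pde4d (2.77), and 1 of the 16 genes of the droplet list (Plin2) is filled in Lip+ISO against ISO.

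The genes most alike in pattern were found by the root mean square difference of log2 CPM over the 12 libraries after each gene's mean was removed, among 11913 tested genes with at least 1 CPM on average. For Pnpla2 these were Ifi27l2a (difference 0.0733) and Fam132a (0.0892). For Lipe they were Pik3cb (0.124) and Adcy5 (0.135). Nearest to Hilpda was Fosb (0.372) and to G0s2 was Rasd1 (0.605), both at a distance well over those of the other members, whose own patterns varied less. Nearest to Abhd5 was Csnk1a1 (0.0718), to Mgll Etfdh (0.0460), to Pnpla3 Esyt1 (0.0798), to Aqp7 Nadsyn1 (0.0584) and to Ces1d the adipocyte gene Car3 (0.119).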

How the data were processed

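RNA was sequenced from 12 cultures of white adipocytes in 4 groups of 3, grouped by sample title. The authors aligned reads to mm9 with STAR 2.4.2a (version per the submitters' processing notes) and assigned them to RefSeq genes using HOMER and iRNA-seq, per the study's methods. The deposited values are raw whole-number counts per gene, with no normalization. The deposited table also gives lengths in base pairs, used here for levels per kilobase. HOMER was set to keep 1 read per position and length, yet Pnpla2 reached 43.7 counts per base, so the counts were used as deposited. Nothing states that counting used strand.

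Counts were tested in R 4.3.3 with edgeR 4.0.16 (filterByExpr, TMM, quasi-likelihood F-test, two-sided, 1 mean per group over all 12 libraries, Benjamini-Hochberg adjustment over 13543 genes). The common biological coefficient of variation was 0.163. Calls required an adjusted p of 0.05 or less. The comparisons share libraries: ISO and Lip were both set against the same vehicle libraries, and Lip+ISO against both Lip and ISO. The test was run on simulated data first. The named genes are all 9 members, per list the called gene with the largest rise and the largest fall (at least 5 CPM in the higher group) in ISO against vehicle and Lip+ISO against ISO, and the nearest genes in pattern. Other genes called in the adrenergic, droplet and marker lists, and Mgll as the third without overlap, were named after their values were seen. The ratio of Hilpda to Pnpla2 was also added then. The 9 members and all lists were chosen with earlier results of these data known. Libraries of the same number deviated together, with every correlation over 0.1, in ISO and vehicle (0.139 to 0.331), Lip and vehicle (0.197 to 0.369) and Lip+ISO and Lip (0.192 to 0.298), but not in Lip+ISO and ISO (0.0373 to 0.311). Correlations between libraries of different numbers are not set beside these. The pairing comes from the replicate numbers in the titles, which do not say what a number marks. The study's methods speak of independent experiments, so p-values measure the spread between these libraries. Alternatives were DESeq2 1.42.0, other scalings, no filter, a replicate block, only the groups compared and leaving out libraries. An edgeR fit with bias-adjusted quasi-dispersions was run as well, unplanned. Promoters were read from the mm9 genome at the starts in the table, printed from 1.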

Additional observations from a re-analysis of the deposited data

How the results depend on the processing

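Of 306 log2 fold changes of the 9 genes under 7 alternatives to the edgeR fit, 292 kept their direction and their side of the threshold, 6 came to pass it, 2 no longer did and 6 changed sign. These include an unplanned edgeR fit with bias-adjusted quasi-dispersions, in which all 45 values kept both. The blocked fit called 5 of the 9 genes in ISO against vehicle, where 3 were called without it, while the count over all tested genes went from 3548 to 5212, and it changed no other call of the 9. With a log2 fold change of at least 1 required, 2 genes were called in Lip+ISO against Lip and 1 in Lip+ISO against ISO. DESeq2 called 1 gene in Lip against vehicle. The sign changed where the difference was near 0, for Mgll in Lip+ISO against Lip (0.0231 with size factors and in DESeq2), for Mgll in Lip+ISO against ISO (0.0170 with size factors and in DESeq2, 0.00149 with the groups compared alone) and for Pnpla3 in the interaction (-0.00126 with library totals alone), and the cause was not tested.

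Over 15 fits that left out libraries, the number of the 9 genes called was 2 to 4 in ISO against vehicle, 3 to 4 in Lip+ISO against Lip, 0 in all of them for Lip against vehicle, 1 to 3 in Lip+ISO against ISO and 0 to 1 in the interaction. The log2 fold change of some genes changed sign in such fits. Without 1 library, it ranged in Lip+ISO against Lip from -0.17 to 0.0331 for Aqp7, from -0.66 to 0.11 for Ces1d, from -0.11 to 0.0824 for Mgll and from -0.0685 to 0.24 for Pnpla2. Without 1 replicate number of every group, it ranged there from -0.15 to 0.0155 for Aqp7, from -0.42 to 0.0686 for Ces1d, from -0.11 to 0.11 for Mgll and from -0.0547 to 0.29 for Pnpla2. In Lip+ISO against ISO, without 1 library, it ranged from -0.14 to 0.0703 for Aqp7, from -0.0995 to 0.67 for Ces1d, from -0.10 to 0.0914 for Mgll and from -0.20 to 0.0297 for Pnpla3. There, without 1 replicate number of every group, it ranged from -0.11 to 0.0626 for Aqp7, from -0.13 to 0.84 for Ces1d, from -0.14 to 0.16 for Mgll and from -0.28 to 0.12 for Pnpla3. In the interaction, without 1 library, it ranged from -0.28 to 0.0835 for Hilpda and from -0.0232 to 0.20 for Pnpla3. In the interaction, without 1 replicate number of every group, it ranged from -0.0273 to 0.23 for Aqp7 and from -0.19 to 0.32 for Pnpla3. The log2 ratio differences of G0s2, Abhd5 and Lipe to Pnpla2 kept their sign without any one library, and that of Hilpda was not tested this way. List counts moved too. In ISO against vehicle, these fits put 5 to 6 adrenergic and 3 to 6 re-esterification genes higher. They also put 0 to 3 genes of the droplet list and 1 to 3 hydrolases higher. Of the markers, 1 to 6 macrophage, 2 to 9 fibroblast and 0 to 3 endothelial ones were higher. Over all tested genes, 1884 to 3908 were called there in either direction. In Lip+ISO against ISO, 0 to 2 genes of the droplet list, 0 to 5 fibroblast markers and 0 to 1 endothelial markers were lower. Of all tested genes, 379 to 1206 were called there in either direction.

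Counts over all tested genes depended on the settings more. Against 7 in Lip against vehicle, the count was 14 without the filter, 57 in DESeq2, 27 in the blocked fit, 11 with the groups compared alone and 0 to 15 with libraries left out. Against 1211 in Lip+ISO against ISO, it was 2607 in the blocked fit, where the numbers were not taken as pairs, 744 with the groups compared alone and 379 to 1206 with libraries left out. Against 220 in the interaction, it was 579 in DESeq2, 898 in the blocked fit and 15 to 328 with libraries left out. With libraries left out it was 1884 to 3908 in ISO against vehicle (3548 in all libraries) and 2092 to 3692 in Lip+ISO against Lip (3702). A log2 fold change of at least 1 left 1013, 996, 3, 269 and 101 genes in ISO against vehicle, Lip+ISO against Lip, Lip against vehicle, Lip+ISO against ISO and the interaction. With library totals alone, 1365 genes were higher and 2329 lower in ISO against vehicle (1670 and 1878 with TMM) and 1069 higher and 2968 lower in Lip+ISO against Lip (1562 and 2140). With 3 libraries a group, changes of the size of that of Abhd5 in ISO lay near the threshold, and the 9 genes had at least 318 counts in every library.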
